A study of Arabidopsis thaliana with 15 samples.

Results

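Cytosolic ribosomal proteins were followed through 58 Arabidopsis thaliana genes, listed by their AGI locus codes. No measured value was a criterion, but earlier results of these data were known when the list was chosen. All 58 were among the 14532 genes of the deposited count table, and all 58 were among the 9986 genes with enough counts to be tested. They comprise 33 genes for proteins of the large subunit, 20 for the small subunit and 5 for the acidic stalk of the large subunit. They fall into 40 protein families, of which 17 have 2 or more of their paralogs (gene copies for the same protein) in this set. RefSeq held all 58 codes. Members are called by their RefSeq symbol where there is one, and otherwise by protein family and locus code.

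The cytosolic ribosome translates nuclear messenger RNA, and its large and small subunits are built in the nucleolus from ribosomal RNA and one copy of most ribosomal proteins. In plants each ribosomal protein is encoded by several paralogs, so the transcript level of a family can be shared unequally among its genes. Many plant ribosomal protein promoters carry site II elements and telo-boxes, short motifs known from genes active in growing tissue, and the TOR kinase pathway, with its S6 kinases, is known for setting ribosome production and translation in roots and shoots.

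The libraries came from roots of wild-type (WT) Columbia-0 seedlings 7 d old, treated whole in aqueous solution before roots and shoots were parted. There were 5 groups of 3 libraries: 5 mM H2O2 with 10 µM RB for 2 h, 5 mM H2O2 alone for 1 h, 2 h or 3 h, and water. H2O2 is an oxidant, and RB is the abbreviation the labels use; the series title names Rose Bengal, a photosensitising dye. The labels call the dye MRB for some of these samples. Each replicate pooled 30 to 50 seedlings, so the spread between libraries is between pools. The water libraries carry 1 h in the treatment and 0 h in the title, and therefore only the 1 h H2O2 group has a water control of the same stated time. Replicates are called a, b and c after the labels.

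RNA was counted by MARS-seq, which sequences a tag near the 3′ end of each transcript, so a level here is per transcript and is not divided by gene length. Levels are in CPM, counts scaled to a common library size with TMM factors, which correct for differences in composition. Library totals ran between 689372 and 6231140 counts. CASP1, a marker of the root endodermis, was present in all 15 libraries, at 244.5 to 524 CPM. Of 14 markers of dividing cells 4 passed the filter on low counts, and the list summed to 47.6 to 60.9 CPM with H2O2 plus RB, 34.7 to 43.3 CPM after 1 h, 28.4 to 46.4 CPM after 2 h, 22.3 to 44.1 CPM after 3 h and 30.4 to 39.3 CPM in water. Green-tissue markers summed to 749 to 1182 CPM with H2O2 plus RB, 1162 to 1566 CPM after 1 h, 957 to 1454 CPM after 2 h, 796 to 1435 CPM after 3 h and 592 to 1070 CPM in water. Of 11 such markers tested, 4 were higher than in water with H2O2 plus RB (36.4%, background 11.6% of all genes), 1 after 1 h (9.09%, background 6.55%), 1 after 2 h (9.09%, background 9.21%) and 2 after 3 h (18.2%, background 16.2%). Within H2O2 plus RB, several of these stood highest in replicate c, RBCS3B for example with 2.74, 11.6 and 45.7 CPM in replicates a, b and c. Of 8 root markers tested, 3 were lower than in water with H2O2 plus RB (37.5%, background 9.62%) and 1 higher (12.5%, background 11.6%). After 1 h 2 were lower (25.0%, background 3.04%), and after 2 h 3 (37.5%, background 4.73%). After 3 h 3 were lower (37.5%, background 14.4%) and 1 higher (12.5%, background 16.2%). Among them, the root hair genes EXPA7 and PRP3 fell in all 4 comparisons with water. EXPA7 fell to means of 2.21 to 8.01 CPM in the treated groups, against 59.8, 62.0 and 41.9 CPM in the water libraries. The part of shoot tissue or root hairs in the ribosomal values was not tested. In whole roots, fewer cells of a type and less RNA per cell cannot be told apart.

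Together the 58 genes took a larger part of the root RNA after each H2O2 treatment than in water. Their counts made up 7.39%, 6.16% and 7.55% of the library with H2O2 plus RB. They made up 6.29%, 6.25% and 7.34% after 1 h of H2O2, 6.27%, 6.99% and 7.60% after 2 h, and 6.28%, 6.81% and 5.81% after 3 h. In water they made up 5.10%, 5.13% and 5.26%. Every treated library was above every water library. The means were 7.03 ± 0.76% with H2O2 plus RB, 6.63 ± 0.62% after 1 h, 6.95 ± 0.66% after 2 h, 6.30 ± 0.50% after 3 h and 5.16 ± 0.082% in water (SD, n = 3 each), which puts the treated means at 1.36, 1.28, 1.35 and 1.22 times that in water. The smallest two-sided p that an exact permutation test of 3 against 3 libraries can give is 0.1, and each of these 4 differences reached it (0.15 after Benjamini-Hochberg adjustment over 6 comparisons). The share with H2O2 plus RB exceeded that after 2 h of H2O2 alone by 0.0818 percentage points, less than either spread (exact permutation test, p = 1).

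**Figure D1:**
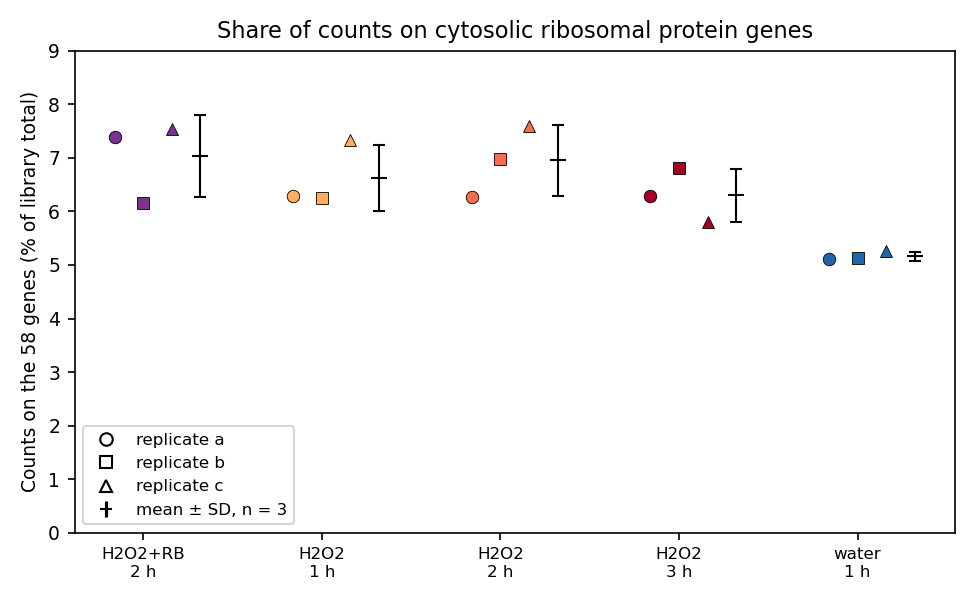
Counts on the 58 ribosomal protein genes as a percent of each library's total (vertical axis) in the 5 groups (horizontal axis); points are libraries and bars the mean ± SD of 3. The 12 treated libraries lie between 5.81% and 7.60%, above the water libraries at 5.10% to 5.26%.

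In water the members spanned 891-fold. The P1 gene AT1G01100, for an acidic stalk protein, was the most abundant with 4108 ± 1257 CPM, rank 14 of all genes. It was followed by P40 (the small subunit protein SA) with 2364 ± 664 CPM, BBC1 (L13) with 2212 ± 620 CPM, the L15 gene AT4G16720 with 2101 ± 164 CPM and the P0 gene AT3G09200 with 1854 ± 501 CPM. The P1 libraries overlap those of P40, and the other neighbours in this order differ by less than the larger of their SDs. At the other end were RPL16A, a gene of the L11 (uL5) family, with 4.61 ± 3.41 CPM, the S18 gene AT1G34030 with 6.48 ± 1.89 CPM, the S24 gene AT3G04920 with 7.37 ± 2.82 CPM, the L22 gene AT3G05560 with 7.68 ± 2.55 CPM and RPS5B with 8.52 ± 3.35 CPM (SD, n = 3 each). Neighbours among these low genes also differ by less than the larger SD. Of the 58 members, 15 were among the 100 most abundant genes in water and 38 among the 500 most abundant.

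With H2O2 plus RB, 18 of the 58 genes rose against water (31.0%) and 0 fell, by edgeR's quasi-likelihood test at a Benjamini-Hochberg adjusted p under 0.05. At an unadjusted p under 0.05, 31 were higher and 0 lower, and DESeq2 called 21 higher and 0 lower. The background was 11.6% of all genes called higher and 9.62% lower, and 23.4% higher among the 1730 genes with a mean of at least 100 CPM. The risers were 12 large-subunit, 4 small-subunit and 2 stalk genes. The fitted fold change was above 0 on the log2 scale for 58 of 58 members, against 49.3% of all genes and 59.2% of abundant genes. The median was 0.65, against -0.01 for all genes and 0.16 for abundant genes. Without replicate c of H2O2 plus RB the count of risers was 9 and without water replicate a it was 10. Without replicate a of H2O2 plus RB the number above 0 was 51. In 34 members the 3 treated libraries were all above the 3 water libraries (background 20.1%). All libraries of both groups carry a library code beginning X10 in the labels, whose meaning is not stated.

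After 1 h of H2O2, 8 genes rose against water (13.8%) and 0 fell (17 and 0 at an unadjusted p under 0.05, 12 and 0 by DESeq2), against a background of 6.55% higher and 3.04% lower. Among genes with a mean of at least 100 CPM the background was 16%, near the members' share of risers. The members include 10 under 40 CPM in water, a limit chosen after the values were seen. Of the other 48 members 8 rose (16.7%). This cut differs from that of the abundant genes. The 8 risers were 4 large-subunit, 1 small-subunit and 3 stalk genes. The median log2 fold change was 0.41, against 0.01 for all genes and 0.16 for abundant genes. Of the 58 members 49 lay above 0 (background 50.5%, and 62.7% of abundant genes). In 15 members the groups did not overlap, all higher (background 14.2%). The count rests on single libraries: it was 1 without water replicate a, 2 without water replicate b, 2 without either replicate a or replicate c at 1 h, and 5 without either replicate b or replicate c at 2 h, which share the estimate of spread. Replicate c at 1 h is the only library of this comparison with an X11 code; within the X10 code, thus without it, the share of counts was 1.11 percentage points above water and the median log2 fold change 0.25.

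After 2 h of H2O2, 16 genes rose against water (27.6%) and 0 fell (30 and 0 at an unadjusted p under 0.05, 17 and 0 by DESeq2), against a background of 9.21% higher and 4.73% lower, and 21.6% higher among abundant genes. They were 10 large-subunit, 3 small-subunit and 3 stalk genes. The median log2 fold change was 0.57, against -0.03 for all genes and 0.21 for abundant genes. Of the 58 members 53 lay above 0 (background 48.5%, and 63.9% of abundant genes). In 24 members all treated libraries were above all water libraries (background 16.3%). The count was 5 without water replicate a, 5 without replicate c at 2 h, 8 without water replicate b and 9 without replicate b at 2 h. After 3 h, 19 genes rose (32.8%) and 3 fell (5.17%), against a background of 16.2% higher and 14.4% lower. At an unadjusted p under 0.05, 29 were higher and 5 lower, and DESeq2 called 21 higher and 3 lower. The abundant genes had 33.8% higher, near the share of all 58 members. Of the 48 members with at least 40 CPM in water 19 rose (39.6%). That limit was chosen after the values were seen, and the 10 genes it leaves out all lay below 0 at 3 h. The choice itself raises this share, which therefore cannot be weighed against the abundant genes. The risers were 14 large-subunit, 3 small-subunit and 2 stalk genes, and those that fell were 2 large-subunit and 1 small-subunit genes. The median log2 fold change was 0.51, against -0.07 for all genes and 0.33 for abundant genes, and 46 of 58 members lay above 0 (background 46.7%, and 64.9% of abundant genes). All 3 h libraries were above water in 30 members (background 21.4%) and below it in 8 (background 21.9%). Without water replicate a, or without replicate b at 3 h, 12 rose and 2 fell. All 2 h and 3 h libraries carry X11 codes and all water libraries X10 codes, so code and treatment cannot be told apart there.

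**Figure D2:**
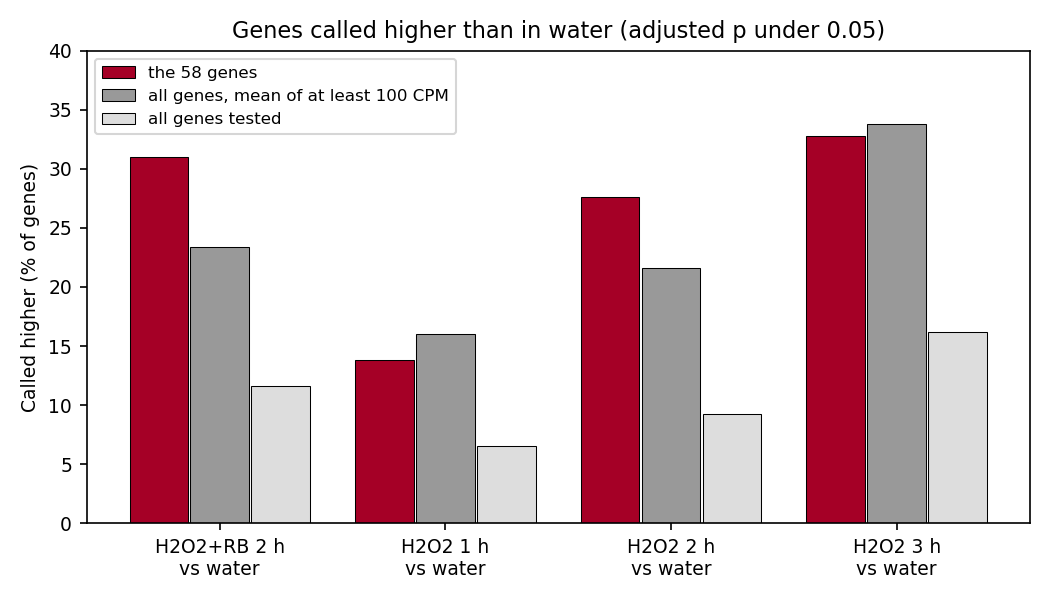
Percent of genes called higher than in water (vertical axis, adjusted p under 0.05) in each treatment (horizontal axis), for the 58 genes, for all genes with a mean of at least 100 CPM and for all genes tested. The members' bars are at 31.0% with H2O2 plus RB, 13.8% after 1 h, 27.6% after 2 h and 32.8% after 3 h; at 1 h and 3 h they stand beside 16% and 33.8% of abundant genes.

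Across the 4 comparisons with water, 25 members rose in at least 1 and 33 in none. These comparisons share the water libraries. No share of all genes, or of abundant genes, called across several comparisons was worked out. The counts in this paragraph therefore have no background and only describe the members. The 5 genes called higher in all 4 were the P2 gene AT2G27710, the P0 gene AT3G11250, RPL24A, the L21 gene AT1G09590 and the L27a gene AT1G70600. A further 8 were called in 3: RPL27AB, RPL23AA, RPS6, the S7 gene AT1G48830, the S3 gene AT3G53870, the L12 (uL11) gene AT3G53430, the L8 (uL2) gene AT4G36130 and the L4 gene AT5G02870.

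The stalk is a flexible arm of the large subunit that recruits elongation factors and stimulates their GTPase. Of its 5 listed genes, 2 rose with H2O2 plus RB, 3 after 1 h, 3 after 2 h and 2 after 3 h. The background in that order was 11.6%, 6.55%, 9.21% and 16.2% of all genes, and 23.4%, 16%, 21.6% and 33.8% of abundant genes. The 1 h count includes AT3G09200, whose call was lost in 11 of 23 alternatives. The stalk genes were not tested as a set. The P2 gene AT2G27710 had 2547, 2202 and 2254 CPM with H2O2 plus RB, 2951, 2502 and 4147 CPM after 1 h of H2O2, 2616, 3379 and 3586 CPM after 2 h, 2082, 2684 and 3466 CPM after 3 h, and 1316, 1144 and 1605 CPM in water. Every treated library was above every water library. The log2 fold change by edgeR's quasi-likelihood fit was 0.79 ± 0.24 with H2O2 plus RB (SE, adjusted p = 0.0244), 1.24 ± 0.24 after 1 h (adjusted p = 0.00233), 1.24 ± 0.24 after 2 h (adjusted p = 0.00162) and 1.02 ± 0.24 after 3 h (adjusted p = 0.00364). The first of these lost its call without any 1 of 5 libraries, with an adjusted p of up to 0.119 without water replicate b. The 3 H2O2 calls held in every alternative fit.

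P0 anchors the P1 and P2 dimers to the ribosome, and 3 P0 genes were listed. AT3G11250 had 169, 149 and 191 CPM with H2O2 plus RB, 146, 149 and 170 CPM after 1 h, 125, 158 and 205 CPM after 2 h, 115, 184 and 160 CPM after 3 h, and 64.1, 58.2 and 100 CPM in water, again without overlap. Its log2 fold changes were 1.21, 1.08, 1.15 and 1.06 in that order of treatments, each ± 0.25 (SE), with edgeR adjusted p-values of 0.00154, 0.00941, 0.00422 and 0.00363. The 1 h call ended without water replicate a (adjusted p = 0.0711) or b (adjusted p = 0.071). AT3G09200, the main P0 gene, had 3397, 2404 and 2921 CPM with H2O2 plus RB, 3353, 2335 and 4665 CPM after 1 h, 2453, 3667 and 3791 CPM after 2 h, 2203, 3063 and 2803 CPM after 3 h, and 1771, 1400 and 2391 CPM in water. It overlapped water after 1 h and 3 h and stood above it with H2O2 plus RB and after 2 h. Its calls at 1 h (log2 0.90 ± 0.27, adjusted p = 0.043) and 2 h (0.83, adjusted p = 0.0468, both edgeR) were lost in 11 and 10 alternatives, to adjusted p-values of 0.259 without replicate c at 1 h and 0.209 without water replicate b. The third P0 gene, AT2G40010, at 49.0 CPM in water, had log2 fold changes of 0.13 to 0.69 and no call. Nor had the P1 gene AT1G01100, with log2 fold changes of 0.23 to 0.70. Its libraries overlapped water after every treatment, at 4602 to 5100 CPM with H2O2 plus RB, 3641 to 7710 CPM after 1 h, 4466 to 7997 CPM after 2 h, 4309 to 8338 CPM after 3 h and 2913 to 5418 CPM in water.

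**Figure D3:**
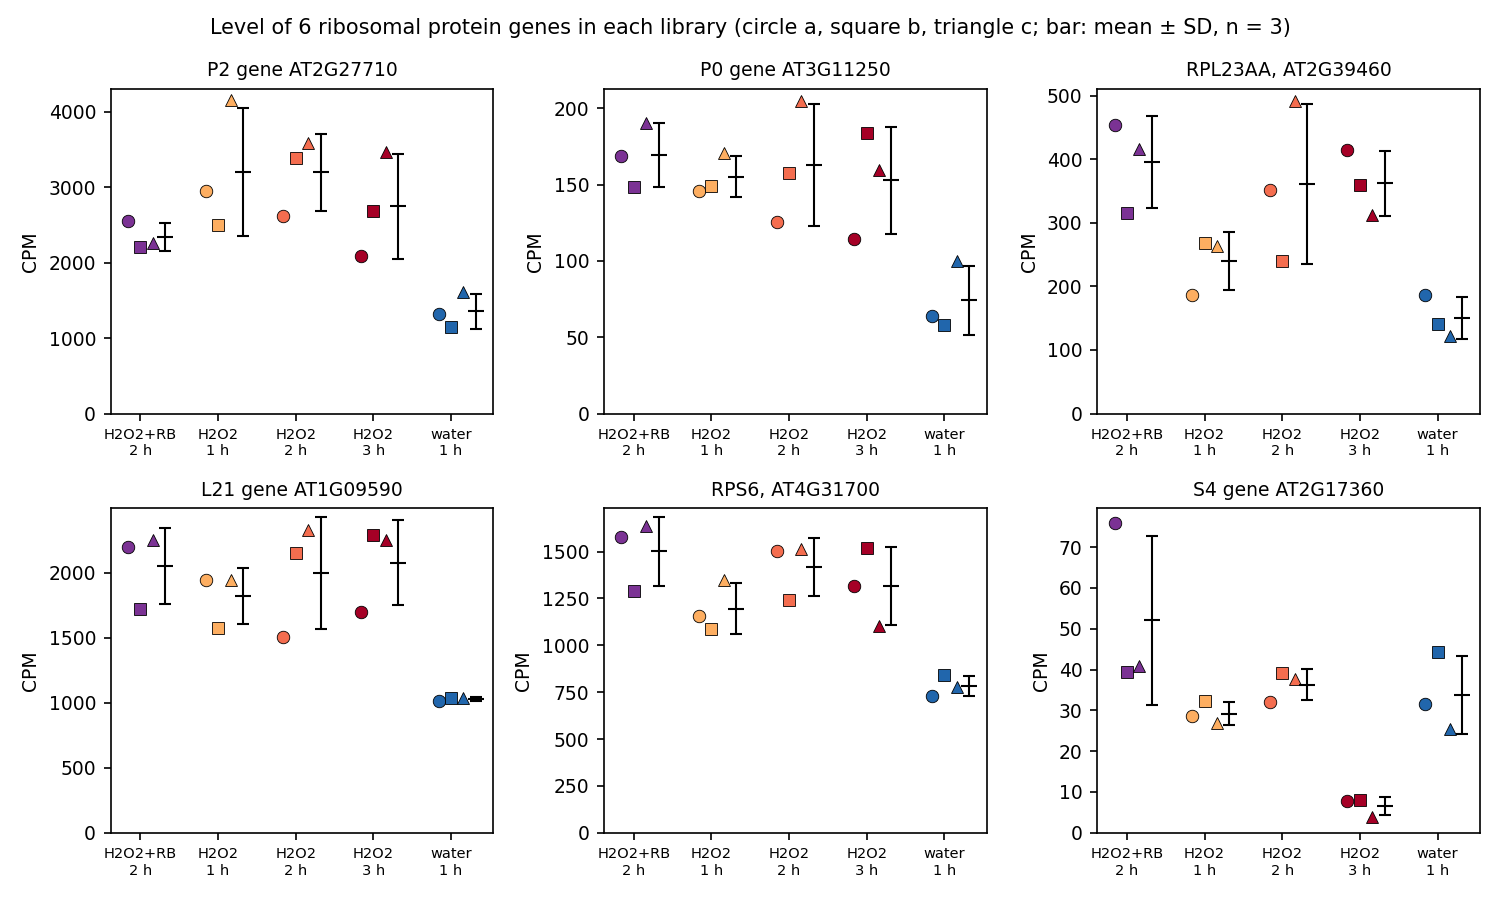
Level in CPM (vertical axis, from 0) of 6 genes in each library of the 5 groups (horizontal axis); points are libraries and bars the mean ± SD of 3. In the P2, P0 (AT3G11250), L23a, L21 and S6 panels all treated points lie above the water points, and in the S4 panel (AT2G17360) the 3 h points at 3.97 to 7.99 CPM lie below all others.

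Of the large-subunit body, RPL23AA codes for L23a, which sits beside the exit of the nascent peptide tunnel. It had 455, 316 and 417 CPM with H2O2 plus RB, 187.1, 269 and 264 CPM after 1 h, 352, 240 and 492 CPM after 2 h, 415, 360 and 313 CPM after 3 h, and 186.9, 141 and 122 CPM in water. The groups did not overlap, though the lowest 1 h library all but met the highest water library. Its log2 fold changes were 1.40 with H2O2 plus RB (adjusted p = 0.000635), 0.67 after 1 h (adjusted p = 0.12), 1.27 after 2 h (adjusted p = 0.00253) and 1.27 after 3 h (adjusted p = 0.00117, all edgeR), each ± 0.26 (SE). The first was the largest rise of any member with H2O2 plus RB, and the 3 calls held in every alternative fit.

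RPL27AB, for L27a (uL15), had 1144, 956 and 1345 CPM with H2O2 plus RB, 844, 965 and 813 CPM after 1 h, 903, 1083 and 1539 CPM after 2 h, 1030, 1695 and 2161 CPM after 3 h, and 603, 664 and 465 CPM in water. All treated libraries were above water. The log2 fold change was 0.99 ± 0.26 with H2O2 plus RB (adjusted p = 0.0106), 0.60 ± 0.26 after 1 h (adjusted p = 0.183), 1.02 ± 0.27 after 2 h (adjusted p = 0.0133) and 1.49 ± 0.27 after 3 h (adjusted p = 0.00036, edgeR), the largest rise of any member. The 2 h call ended without replicate c at 2 h (adjusted p = 0.127) and the call with H2O2 plus RB without its replicate c (adjusted p = 0.0877). Its paralog AT1G70600 rose in all 4 comparisons by 0.64 to 0.81, of which the 3 h call held in every alternative. Of 23 alternatives its 1 h call was lost in 11, its 2 h call in 13 and that with H2O2 plus RB in 4. The last 300 transcript bases of 10 members overlap another annotated gene. The transcript end of RPL27AB overlaps AT1G23300 on the opposite strand; that gene had 0.329 to 2.25 mean CPM in the 5 groups, and the sources used here do not say whether counting used strand.

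The L21 gene AT1G09590 had 2194, 1719 and 2248 CPM with H2O2 plus RB, 1947, 1575 and 1942 CPM after 1 h, 1509, 2149 and 2325 CPM after 2 h, 1698, 2286 and 2249 CPM after 3 h, and 1010, 1035 and 1034 CPM in water. Its log2 fold changes were 1.00 with H2O2 plus RB (adjusted p = 0.00198), 0.83 after 1 h (adjusted p = 0.0174), 0.96 after 2 h (adjusted p = 0.00455) and 1.02 after 3 h (adjusted p = 0.00146, edgeR), each ± 0.21 (SE). The 1 h call ended without any 1 of 4 libraries, with an adjusted p of up to 0.103 without water replicate a. RPL24A, whose protein bridges the subunits, rose by 1.12 with H2O2 plus RB (adjusted p = 0.00201), 0.96 after 1 h (adjusted p = 0.0139), 0.95 after 2 h (adjusted p = 0.0106) and 0.65 after 3 h (adjusted p = 0.0442, edgeR), each ± 0.24 (SE). Its level was 1987, 1535 and 1911 CPM with H2O2 plus RB, 1669, 1227 and 1983 CPM after 1 h, 1271, 1708 and 1880 CPM after 2 h, 1086, 1503 and 1350 CPM after 3 h, and 801, 676 and 1034 CPM in water. The 1 h and 2 h calls of RPL24A ended without water replicate b (adjusted p = 0.0911 and 0.0738) and without other single libraries; its 3 h call was lost in 9 alternatives (adjusted p of up to 0.161 without water replicate b), and its call with H2O2 plus RB held in every alternative. The second L24 gene, STV1, known for reinitiation of translation after upstream open reading frames, had log2 fold changes of 0.64 to 0.67 with adjusted p-values of 0.0749 to 0.139 and was not called.

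In other large-subunit families 1 or both listed paralogs were called; differences between paralogs were not tested. Of the L12 (uL11) pair, whose protein forms the base of the stalk, AT3G53430 rose with H2O2 plus RB (log2 0.90), after 2 h (0.78) and after 3 h (0.91), and AT2G37190 rose after 2 h (0.65) and 3 h (0.68). Of the L8 (uL2) pair, near the peptidyl transferase centre, AT4G36130 rose with H2O2 plus RB (0.73), after 2 h (0.80) and after 3 h (0.60), while EMB2296 had 0.48 to 0.89 and no call. The 3′ end of AT4G36130 overlaps AT4G36140 on the opposite strand, which had 4.88 to 17.6 mean CPM and no call against water. Of the L4 pair, which lines the peptide tunnel, AT5G02870 rose with H2O2 plus RB (0.79), after 1 h (0.79) and after 2 h (0.76), and AT3G09630 had 0.11 to 0.45 and no call. The L17 (uL22) genes rose with H2O2 plus RB, AT1G27400 by 0.74 and AT1G67430 by 0.61, the second also after 3 h by 0.57. Of the L7 (uL30) genes, AT2G01250 rose with H2O2 plus RB (0.93) and after 3 h (0.92), and AT2G44120 after 3 h (0.86). Of the L7a (eL8) genes, AT2G47610 rose with H2O2 plus RB (0.71), and AT3G62870, with 0.46 to 0.89, had no call. The second L21 gene, AT1G09690, rose after 3 h (0.80), as did the L28 gene AT2G19730 (0.95), and the L35a gene AT1G74270 rose after 2 h (0.90) and 3 h (1.00). The rises named here are edgeR calls against water. Those of AT3G53430 (3 h and H2O2 plus RB), AT2G37190 (3 h) and AT1G74270 (3 h) held in every alternative. Of 23 alternatives, AT1G67430 kept its call in only 6 with H2O2 plus RB and 10 after 3 h. The call of AT2G01250 with H2O2 plus RB was lost in 10 and that of AT2G37190 at 2 h in 9. Each of the others was lost in 3 to 8.

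In the small subunit, RPS6 codes for S6, the substrate of the S6 kinases. It had 1576, 1292 and 1634 CPM with H2O2 plus RB, 1154, 1086 and 1347 CPM after 1 h, 1503, 1239 and 1512 CPM after 2 h, 1318, 1521 and 1104 CPM after 3 h, and 732, 840 and 780 CPM in water. Every treated library was above every water library. Its log2 fold changes were 0.94 with H2O2 plus RB (adjusted p = 0.00176), 0.61 after 1 h (adjusted p = 0.059), 0.86 after 2 h (adjusted p = 0.00599) and 0.75 after 3 h (adjusted p = 0.0076, edgeR), each ± 0.20 (SE). The 2 h call ended without water replicate a (adjusted p = 0.0521). Its paralog EMB3010 had 2224, 1647 and 1843 CPM with H2O2 plus RB, 1258, 1452 and 1713 CPM after 1 h, 1500, 1589 and 1597 CPM after 2 h, 1665, 1918 and 1626 CPM after 3 h, and 1360, 1451 and 1351 CPM in water. EMB3010 was not called, with log2 fold changes of 0.09 to 0.46.

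The S7 gene AT1G48830 had 136, 118 and 163 CPM with H2O2 plus RB, 106, 165 and 99.5 CPM after 1 h, 142, 129 and 191 CPM after 2 h, 173, 164 and 200 CPM after 3 h, and 99.6, 80.8 and 50.9 CPM in water. Only the 1 h group overlapped water. Its log2 fold change was 1.20 ± 0.26 after 3 h (adjusted p = 0.00184), 0.98 after 2 h (adjusted p = 0.0154) and 0.84 with H2O2 plus RB (adjusted p = 0.0255, edgeR). The 3 h call held in every alternative, and the 2 h call ended without replicate c at 2 h (adjusted p = 0.126) and that with H2O2 plus RB without its replicate c (adjusted p = 0.167), among other libraries. Of the S3 genes, whose protein lines the mRNA entry channel, AT3G53870 rose with H2O2 plus RB (log2 0.91), after 1 h (0.89) and after 2 h (0.88), and AT2G31610 rose with H2O2 plus RB (0.87 ± 0.19, SE). The AT2G31610 call held in every alternative, while those of AT3G53870 were lost in 3, 5 and 4, with an adjusted p of up to 0.148 without replicate c at 1 h. RPS15 rose after 3 h (0.66), a call lost in 5 alternatives (adjusted p of up to 0.0789 without replicate b at 3 h); its transcript end overlaps MPI7 on the same strand, which had 1.07 to 3.89 mean CPM. P40, the most abundant small-subunit gene, had log2 fold changes of 0.23 to 0.94 and no call, and its end overlaps ERF73 on the opposite strand, which had 53.5 to 128 mean CPM and was called lower with H2O2 plus RB (log2 -1.08, adjusted p = 0.0178) and after 1 h (-1.25, adjusted p = 0.0175, edgeR). RPS5A, known for a promoter active in dividing cells, had log2 fold changes of -0.10 to 0.35, and PFL, an S18 gene named for its pointed first leaves in mutants, had 0.25 to 0.67; neither was called.

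The promoters of the members were read from RefSeq TAIR10.1 as the 250 bases before each annotated gene start. Site II letters, searched as TGGGCC or TGGGCT on either strand, stood in 41 of 58 (70.7%), against 22.5% of 9815 genes tested that had such a window, 28.1% of 1717 with a mean of at least 100 CPM and 19.2% of 27443 nuclear protein-coding genes. The telo-box, searched as AAACCCTA on either strand, stood in 8 of 58 (13.8%), against 3.12% of genes tested. Among the 13 genes called higher in 3 or 4 of the water comparisons 6 had site II letters, among the 12 called in 1 or 2 there were 10, and among the 33 called in none there were 25. Presence of the letters is a description of the sequence; it was not tested against the changes. The P2 gene, with no match in its window, and the S6 pair, of which RPS6 rose and EMB3010 was not called, are shown 5′ to 3′ on the gene's strand, site II letters in capitals. They lie at chr2:11816384-11816633 (plus strand), chr4:15347805-15348054 (minus strand) and chr5:3260255-3260504 (minus strand) of TAIR10.1, outside other annotated genes.
P2 gene AT2G27710: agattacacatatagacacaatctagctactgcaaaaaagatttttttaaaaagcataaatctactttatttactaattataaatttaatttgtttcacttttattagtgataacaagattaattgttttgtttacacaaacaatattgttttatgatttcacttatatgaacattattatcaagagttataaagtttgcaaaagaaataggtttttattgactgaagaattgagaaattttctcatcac
RPS6: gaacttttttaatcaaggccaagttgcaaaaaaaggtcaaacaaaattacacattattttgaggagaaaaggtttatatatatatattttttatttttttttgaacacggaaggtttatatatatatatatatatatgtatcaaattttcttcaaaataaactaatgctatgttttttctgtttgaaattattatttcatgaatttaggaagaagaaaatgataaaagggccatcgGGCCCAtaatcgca
EMB3010: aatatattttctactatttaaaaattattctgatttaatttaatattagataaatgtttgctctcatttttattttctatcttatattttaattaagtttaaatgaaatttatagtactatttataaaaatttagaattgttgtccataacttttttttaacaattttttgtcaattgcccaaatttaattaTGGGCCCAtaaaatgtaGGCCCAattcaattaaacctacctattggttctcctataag
RPS6 holds 1 match, 9 bases from the gene start. EMB3010 holds 3, the nearest at 36 bases; the palindrome TGGGCCCA counts once on each strand.

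The members of low abundance behaved differently from the rest at 3 h. A limit of 40 CPM in water, chosen after the values were seen, sets 10 genes apart: RPL16A, AT1G34030, AT3G04920, RPS5B, AT3G05560, PGY1 and AT1G08360 (L10a), RPS15A, ATL5 (L5) and the S4 gene AT2G17360. All 10 had a log2 fold change below 0 after 3 h, with a median of -1.13, and 3 fell (30.0%). Of 4308 genes tested in the same range of levels, 56.2% lay below 0, with a median of -0.12, and 14.8% fell. The other 48 members had a median of 0.59, with 2 below 0. The sum of the 10 was 58.1, 53.1 and 71.9 CPM after 3 h, against 149, 143 and 151 CPM in water. It was 165, 129 and 182 CPM after 1 h of H2O2 and 129, 163 and 179 CPM after 2 h, on both sides of the water values. In every alternative fit, all of these genes that could be tested kept a value below 0 at 3 h. None of their transcript ends overlaps another annotated gene.

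**Figure D4:**
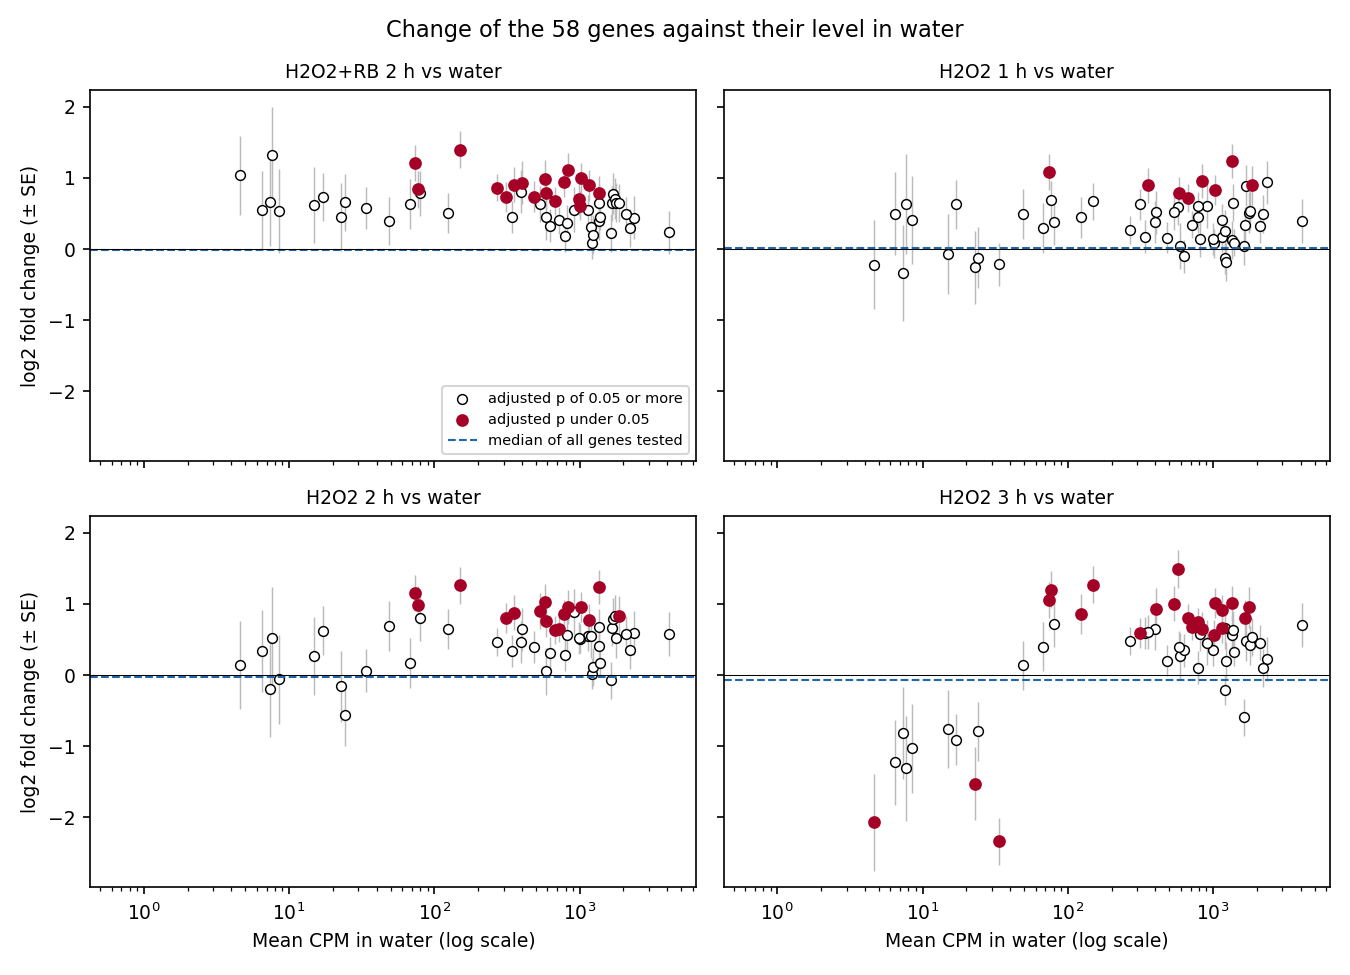
Log2 fold change against water (vertical axis, ± SE) of each of the 58 genes against its mean CPM in water (horizontal axis, log scale), in 4 comparisons; filled points have adjusted p under 0.05 and the dashed line is the median of all genes tested. After 3 h the 10 genes under 40 CPM lie below 0 and 46 of the other 48 above it; after the other treatments no member is called lower.

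The S4 gene AT2G17360, for a protein of the small-subunit body, had 7.81, 7.99 and 3.97 CPM after 3 h, on 34, 20 and 8 counts, against 31.5, 44.3 and 25.4 CPM in water, on 79, 268 and 31 counts. It had 28.6, 32.2 and 26.8 CPM after 1 h, 31.9, 39.2 and 37.6 CPM after 2 h, and 75.9, 39.4 and 40.9 CPM with H2O2 plus RB. The 3 h libraries were below all 12 others. The log2 fold change was -2.34 ± 0.33 against water (SE, adjusted p = 3.2e-05) and -2.12 ± 0.34 against 1 h of H2O2 (adjusted p = 0.000436, both edgeR), and both calls held in every alternative fit. RPL16A, for a protein of the complex around 5S ribosomal RNA, fell by 2.07 on the log2 scale after 3 h (SE 0.68, edgeR adjusted p = 0.0273), with 1.38, 2.00 and 0 CPM after 3 h and 5.58, 7.44 and 0.821 CPM in water. These groups overlap, rest on 6, 5 and 0 counts after 3 h against 14, 45 and 1 in water, and the call ended without water replicate b (adjusted p = 0.17) and 3 other single libraries. The L10a gene AT1G08360, of the L1 stalk that guides the leaving tRNA, had 5.74, 8.39 and 9.43 CPM after 3 h and 17.9, 18.7 and 32.0 CPM in water, without overlap (log2 -1.53 ± 0.51, edgeR adjusted p = 0.03). Its call ended without water replicate c (adjusted p = 0.0955) or any 3 h library. Its paralog PGY1, known for a part in leaf polarity, had a log2 fold change of -0.76 after 3 h and was not called.

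The same 10 genes stood apart in a single library. All 10 had their highest level in replicate a of H2O2 plus RB, where their sum was 438 CPM, against 185 and 107 CPM in replicates b and c. That library held the highest level for 9.38% of the genes of like level and for 8.33% of the other 48 members. Without it, 7 of the 10 lay below 0 in the comparison of H2O2 plus RB with water.

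The split of counts between listed paralogs is described here without a test. Of the 17 families with 2 or more listed, a paralog's share did not overlap water in 7 with H2O2 plus RB, 7 after 1 h, 7 after 2 h and 6 after 3 h. In 2 families (S6 and P0) this held in all 4 treatments, though for P0 not by the same gene at each, and 7 families (L7a, L10a, L8, L17, L7, S3 and S2) overlapped water in every treatment. The families with the values below were among those that stood apart. No share over other gene families was worked out to set beside the counts of families. Any 1 paralog sufficed, and full separation of 3 against 3 libraries has a two-sided exact permutation p of 0.1. RPS6 took 41.5%, 44.0% and 47.0% of the S6 counts with H2O2 plus RB, 47.8%, 42.8% and 44.0% after 1 h, 50.1%, 43.8% and 48.6% after 2 h, 44.2%, 44.2% and 40.5% after 3 h, and 35.0%, 36.7% and 36.6% in water. All 12 treated libraries were above water. RPL24A took 45.7 ± 0.482% of the L24 counts with H2O2 plus RB, 43.4 ± 2.25% after 1 h, 42.9 ± 1.52% after 2 h, 38.1 ± 0.938% after 3 h and 38.1 ± 1.24% in water (SD, n = 3 each), overlapping water only at 3 h. The L4 gene AT5G02870 took 52.8 ± 2.69%, 48.4 ± 0.917%, 51.0 ± 0.713% and 48.0 ± 2.13% in the same order of treatments and 43.0 ± 3.07% in water, also overlapping only at 3 h. So did the L21 gene AT1G09590, with 44.3 ± 1.76%, 46.6 ± 3.34%, 43.7 ± 2.64% and 41.9 ± 1.88% in treated roots and 38.2 ± 1.35% in water.

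The P0 gene AT3G11250 remained a minor copy, with 5.45 ± 0.715% of the P0 counts with H2O2 plus RB, 4.48 ± 1.27% after 1 h, 4.61 ± 0.519% after 2 h, 5.24 ± 0.354% after 3 h and 3.74 ± 0.291% in water; only the 1 h group overlapped water. ATL5, a large-subunit gene whose protein binds 5S ribosomal RNA, took 6.17%, 8.20% and 19.2% of the L5 counts after 3 h, against 23.0%, 23.3% and 23.5% in water. It was also below water after 1 h (22.8%, 13.7% and 19.2%) and 2 h (8.38%, 18.2% and 8.96%), and spread from 8.05% to 37.9% with H2O2 plus RB. ATL5 had 26, 103 and 15 counts after 1 h, 43, 18 and 18 after 2 h, 57, 25 and 39 after 3 h, and 70, 133 and 28 in water. The S18 gene AT1G34030 took 0.201%, 0.121% and 0.113% of the S18 counts after 3 h, against 0.568%, 0.510% and 0.522% in water. These rest on 11, 7 and 5 counts of AT1G34030 after 3 h and 17, 27 and 10 in water. Counting error on the shares of paralogs was not worked out. Paralogs of the 19 pairs shared runs of 8 to 44 identical bases in the last 300 bases of their transcripts, with 44 for the L21 pair and 21 or fewer for the others. The sequencing kit had 75 cycles, and the sources used here do not say how reads that match several genes were counted.

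**Figure D5:**
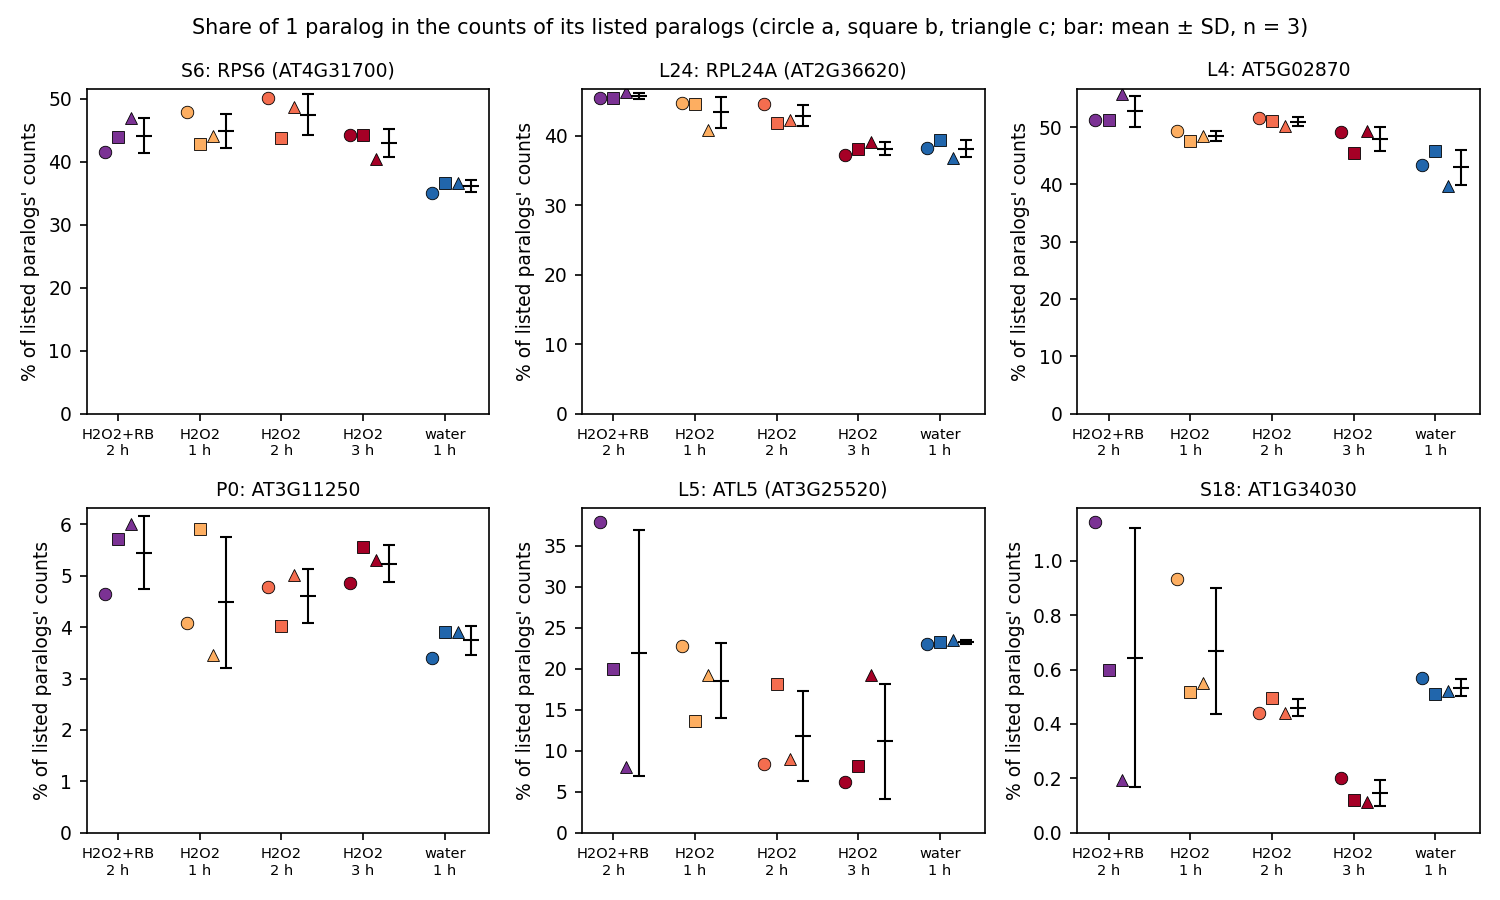
Share of 1 paralog in the counts of the listed paralogs of its family (percent, vertical axis from 0, scales differ between panels) in each library of the 5 groups (horizontal axis); bars are the mean ± SD of 3. RPS6 lies above its water share of 35.0% to 36.7% in all 12 treated libraries. AT1G34030 lies below its water share in all 3 h libraries, where it had 11, 7 and 5 counts.

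Adding RB to H2O2 for 2 h changed 0 of the 58 genes relative to H2O2 alone by edgeR's quasi-likelihood test, with 2 at an unadjusted p under 0.05 and 0 by DESeq2, against a background of 2.43% of all genes called in either direction. The median log2 difference was 0.05, against 0.02 for all genes, and the values ran from -0.45 for AT2G27710 to 1.22 for ATL5. Without replicate c of H2O2 plus RB 1 gene was called. H2O2 plus RB carries X10 codes and 2 h of H2O2 X11 codes, which cannot be told apart from the treatment. Between 3 h and 1 h of H2O2, 1 member rose and 2 fell, against a background of 6.91% higher and 6.94% lower. RPL27AB rose by 0.90 ± 0.26 (adjusted p = 0.0293). AT2G17360, given above, and RPS15A fell, RPS15A by 1.54 on the log2 scale (SE 0.36, edgeR adjusted p = 0.00838). RPS15A had 8.50, 8.39 and 10.9 CPM after 3 h and 19.4, 26.5 and 36.3 CPM after 1 h, without overlap. The count was 5 without either replicate a or replicate c of H2O2 plus RB, and 6 without replicate b at 1 h; DESeq2 called 1 higher and 4 lower.

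Other genes of the translation machinery, taken from lists of known genes, were set against the same background of all genes. Of 24 translation factors tested, 3 rose (12.5%, background 11.6%) and 1 fell (4.17%, background 9.62%) with H2O2 plus RB. After 2 h 2 rose (8.33%, background 9.21%), and after 3 h 3 rose (12.5%, background 16.2%) and 4 fell (16.7%, background 14.4%), shares near the background. TCTP, a conserved growth-related protein kept with this list, fell at 3 h to 188 ± 43.0 CPM, against 932 ± 195 CPM in water (SD, n = 3 each; log2 -2.31 ± 0.31, edgeR adjusted p = 1.64e-05). FBR12, an eIF5A gene, rose after 2 h (0.70) and 3 h (0.67), and its paralog ELF5A-1 fell with H2O2 plus RB (-1.31) and after 3 h (-1.57). Of 16 ribosome biogenesis factors tested, 3 rose (18.8%, background 11.6%) and 1 fell (6.25%, background 9.62%) with H2O2 plus RB, and 2 rose after 1 h (12.5%, background 6.55%). After 3 h 1 rose (6.25%, background 16.2%) and 3 fell (18.8%, background 14.4%), and 6 fell at 3 h relative to 1 h (37.5%, background 6.94%). NOP56, of the box C/D particles that guide rRNA methylation, rose after 1 h (1.11 ± 0.31, SE) and with H2O2 plus RB (1.03), and PRH75, a nucleolar RNA helicase, fell with H2O2 plus RB (-1.11) and after 3 h (-1.05). Of 14 nuclear genes for plastid ribosomal proteins tested, 1 rose with H2O2 plus RB (7.14%, background 11.6%), RPS1 (AT5G30510, 0.84). After 3 h 1 fell (7.14%, background 14.4%), RPL4 (AT1G07320, -0.59). Both shares are below the background. Of 3 genes of the TOR pathway tested, 1 rose in all 4 comparisons with water, the S6 kinase gene S6K2. That is 33.3%, against backgrounds of 11.6% with H2O2 plus RB, 6.55% after 1 h, 9.21% after 2 h and 16.2% after 3 h. S6K2 had 115 ± 4.74 CPM with H2O2 plus RB, 113 ± 28.0 CPM after 1 h, 111 ± 28.8 CPM after 2 h, 121 ± 26.6 CPM after 3 h and 60.2 ± 16.1 CPM in water (SD, n = 3 each), with log2 fold changes of 0.89 to 1.03.

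In the authors' deposited table, whose log2 ratios run the other way (negative where the treated group is higher), 18 members had an adjusted p under 0.05 with H2O2 plus RB against water, 10 after 1 h, 16 after 2 h and 1 after 3 h. The authors' deposited table had 14.4%, 6.56%, 9.13% and 2.50% of all its genes under that limit in these comparisons. Of the members under the limit in the authors' deposited table, 18, 8, 16 and 1 were also called here. The fit here called 18, 8, 16 and 22 members in these comparisons. After 3 h it called 19 higher, and 0 members were under the limit and higher in the authors' deposited table. Of the 9986 genes tested here, 30.5% were called after 3 h. A DESeq2 fit of the same genes called 30.8%, with 21 members higher and 3 lower. The share of 2.50% in the authors' deposited table is over 14532 genes. The reason for the difference at 3 h was not tested. The 1 member at 3 h in the authors' deposited table is AT2G17360, lower after 3 h, and the same gene is the 1 member between 3 h and 1 h. The members' median log2 ratio in the authors' deposited table was -0.64, -0.42, -0.55 and -0.52.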

How the data were processed

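Tag counts per gene, not normalized, were deposited by the authors for 15 MARS-seq root libraries in 1 table; per the submitters' processing notes the tools were bcl2fastq, cutadapt, STAR 2.4.2a, HTSeq and DESeq2. Genome build, strand and molecular identifier treatment: not given in the sources used here. That table also holds the authors' deposited log2 fold changes and p-values, and 30 per-sample columns that were not used. The 58 members and the other gene lists were chosen with earlier results of these data known.

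All 15 libraries were fitted together on the raw counts with edgeR 4.0.16 (R 4.3.3, TMM factors of 0.784 to 1.20, robust quasi-likelihood, 10 residual degrees of freedom). Genes passed edgeR's filterByExpr (minimum count 10, total 15), which left 9986 of 14532 genes. P-values were Benjamini-Hochberg adjusted over all 9986 genes in each of 6 comparisons, with calls at an adjusted p under 0.05. CPM are TMM-scaled; fold changes are the fit's own, and log2 values per library used a prior count of 2. Shares were compared by exact two-sided permutation of libraries, and 95% intervals on them cover counting error only. Depth of 689372 to 6231140 counts limits members of few CPM. Scripts were tested on simulated data. Replicate letters were not taken as pairs. Named genes are, in each comparison, up to 4 called higher and 4 called lower with the largest fold change, the 5 highest and 5 lowest in water, the listed paralogs of families with a call, and PGY1, PFL, STV1, ATL5, RPS5A and the S6 pair. Alternatives were DESeq2 1.42.0, other scalings, filters, thinning, a replicate block, only the groups compared and each library left out. Promoters and transcript ends came from RefSeq TAIR10.1.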

Additional observations from a re-analysis of the deposited data

Results flagged for a closer look

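The size of the change differed between 3 h and 1 h of H2O2 for 3 members, by a test of that difference in the fit across all genes. Of the members, 1 was higher at 3 h (1.72%, background 6.91%) and 2 were lower (3.45%, background 6.94%). Both shares are below those of all genes. The log2 difference, 3 h over 1 h, was -2.12 for the S4 gene AT2G17360, -1.54 for RPS15A (AT1G07770) and 0.90 for RPL27AB (AT1G23290), with edgeR quasi-likelihood adjusted p-values of 0.000436, 0.00838 and 0.0293. The call of RPL27AB was lost in 6 alternatives, with an adjusted p of up to 0.163 without replicate c at 3 h; the other 2 held in every alternative.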

How the results depend on the processing

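No call of a member reversed its direction in an alternative: of 67 calls in the 6 comparisons, 26 held in all 21 to 23 alternatives, 41 were lost in at least 1 and 0 reversed. Fitting only the 2 groups compared gave 4 called members after 1 h (8.51% of all genes called, 9.59% in the main fit). With H2O2 plus RB it gave 28 (25.1% of all genes, 21.2% in the main fit). A log2 depth covariate, chosen after seeing the data, gave 30 with H2O2 plus RB (26.9% of all genes). Between 3 h and 1 h it gave 5 (18.2% of all genes), and DESeq2 also gave 5 (15.2%, against 13.8% in the main fit). Upper-quartile scaling moved the members' median at 3 h to 0.35, with the median of all genes at -0.24. With it 13 rose and 5 fell at 3 h, against 19 and 3. Leaving out organelle genes turned the difference in share between H2O2 plus RB and 2 h of H2O2 to -0.0004 percentage points. The causes were not tested.

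Leaving out 1 library at a time gave these ranges. With H2O2 plus RB against water, 9 to 20 members were called, the median was 0.54 to 0.70 and the share difference 1.61 to 2.30 points. After 1 h the ranges were 1 to 9, 0.25 to 0.49 and 1.11 to 1.65. After 2 h they were 5 to 20, 0.41 to 0.62 and 1.46 to 2.13, and after 3 h 14 to 23, 0.44 to 0.58 and 0.88 to 1.38. Between H2O2 plus RB and 2 h of H2O2 they were 0 to 1, -0.06 to 0.16 and -0.26 to 0.52, and between 3 h and 1 h 2 to 6, 0.02 to 0.21 and -0.58 to 0.0268, the last without replicate c at 1 h. At the lowest counts against water, all genes called were 15.8% with H2O2 plus RB (21.2% in the main fit) and 5.71% after 1 h (9.59%). Without water replicate a they were 9.30% after 2 h (13.9% in the main fit) and 24.3% after 3 h (30.5%). The cause was not tested.

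A replicate block gave 20 called members with H2O2 plus RB (20.6% of all genes), 9 after 1 h (9.47%) and 18 after 2 h (13.7%). It gave 23 after 3 h (29.0% of all genes), 0 for RB added to H2O2 (2.30%) and 3 between 3 h and 1 h (12.9%). The sources do not state that letters pair libraries, and the rule for taking them as pairs was not met: the 30 same-letter pairs had residual correlations of -0.44 to 0.64, and 7 of 15 libraries correlated best with their own letter. Depth limits the members under 40 CPM most.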
